A study of Homo sapiens with 3 samples.

Results

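The genes described here are 34 members of the pathway that breaks glucose down to pyruvate and lactate, carries lactate and related acids across the membrane, and answers to low oxygen. They are 34 of the 36601 genes in the count tables, were taken by symbol, and fall by textbook role into glucose uptake (SLC2A1, SLC2A3), upper glycolysis (HK1, HK2, GPI, PFKL, PFKM, PFKP, ALDOA, ALDOC, TPI1), the PFKFB regulators (PFKFB3, PFKFB4), lower glycolysis (GAPDH, PGK1, PGAM1, ENO1, ENO2, PKM), lactate and pyruvate handling (LDHA, LDHB, SLC16A1, SLC16A3, SLC16A6, PDK1) and hypoxia targets (VEGFA, CA9, BNIP3, BNIP3L, NDRG1, ADM, EGLN3, P4HA1, ANKRD37). The list was chosen by values measured in these data, among them the change of SLC16A6 from D32 to D44 in melanocyte-like cells, so every D44 to D32 ratio is a description and no finding. Levels by library and cell class were in view as well, so tests between classes are not independent of that choice.

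Droplet RNA libraries of induced human melanocytes were made at 3 times of differentiation, day 23 (D23), day 32 (D32) and day 44 (D44), with 1 library each. All 3 came from pluripotent stem cells that formed embryoid bodies and were then grown in a melanocyte medium built on Wnt3a-conditioned medium, low-glucose DMEM, dexamethasone, insulin, ascorbic acid, stem cell factor, endothelin-3, cholera toxin, TPA and bFGF, with TPA withdrawn and serum added after plating and passage. The labels disagree on the starting line: titles name induced pluripotent stem cells, and source fields name H9, an embryonic stem cell line. The cells were detached with an enzyme, strained, frozen and thawed before the droplets were made. The induction and the sequencing batch were common to D32 and D44 and separate for D23, so for D23 the day, the induction and the batch cannot be told apart. No day has a second library, and differences between days were therefore not tested.

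After filtering, 3796, 6023 and 5811 cells were kept in D23, D32 and D44, with a median of 12574, 36375 and 42940 unique molecular identifiers (UMIs, counts of captured RNA molecules) per cell. Cells were classed by summed UMIs of marker genes, none of which is a member. Melanocyte-like cells (marked by PMEL, MLANA, DCT, TYR and others) numbered 2441, 5532 and 5761. Mesenchymal-like cells (collagens, LUM, PRRX1 and others) numbered 360, 275 and 21, and neural-like cells (CRABP1, NEFM, ZIC1 and others) 828, 117 and 2, of which the last gave no sum. Levels are given as CPM, a gene's UMIs per 1000000 UMIs of the summed class, with exact Poisson intervals at 95% where printed. Summed melanocyte markers stood at 4499, 11011 and 12884 CPM in melanocyte-like cells and between 103 and 227 in the other classes. In melanocyte-like cells the 12 mesenchymal markers summed to 361, 141 and 73.1 CPM, the 12 neural markers to 104, 108 and 118, the 6 Schwann cell markers, several of which melanocytes share, to 893, 762 and 837, the 6 pluripotent cell markers to between 43.1 and 68.7, the 7 blood and endothelial markers to between 32.2 and 38.6 and the 6 keratinocyte markers to at most 0.214. The part of these shifts in the ratios between days was not tested. Mesenchymal-like cells of D32 also expressed KRT8, KRT18 and KRT19, and the 21 of D44 formed no cluster of their own. Levels are not scaled by gene length, because the sources used here do not say which end of the RNA was read, and genes are therefore compared with themselves and not with each other.

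Glycolysis turns glucose into pyruvate in the cytoplasm. Lactate dehydrogenase then converts pyruvate to lactate, which leaves the cell through monocarboxylate transporters together with a proton, whereas pyruvate dehydrogenase, which PDK1 switches off, feeds pyruvate into mitochondria. When oxygen is low, the prolyl hydroxylases that mark HIF1A and EPAS1 for degradation are inactive, and the stabilised factors raise many of the genes listed here. Melanocytes live in a mildly hypoxic epidermis, and melanosome acidity and melanin synthesis depend on ion and proton balance.

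SLC2A1, ADM and P4HA1 were lower in melanocyte-like cells than in both other classes, as described below, and the 250 bases before their annotated start are shown so that the hypoxia element core can be looked for. They are from RefSeq on GRCh38.p14 and are written 5′ to 3′ on the strand of the gene. SLC2A1 lies at chr1:42958869-42959118 on the minus strand, ADM at chr11:10304823-10305072 on the plus strand and P4HA1 at chr10:73096867-73097116 on the minus strand. SLC2A3, the other member lower than both classes, and SLC16A6 have no promoter shown. Capitals mark a core ACGTG or GCGTG on either strand.
SLC2A1: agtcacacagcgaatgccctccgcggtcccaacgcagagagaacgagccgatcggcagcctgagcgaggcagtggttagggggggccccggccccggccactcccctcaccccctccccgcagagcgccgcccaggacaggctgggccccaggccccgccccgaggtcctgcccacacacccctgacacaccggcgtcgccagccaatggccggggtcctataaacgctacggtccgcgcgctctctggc
ADM: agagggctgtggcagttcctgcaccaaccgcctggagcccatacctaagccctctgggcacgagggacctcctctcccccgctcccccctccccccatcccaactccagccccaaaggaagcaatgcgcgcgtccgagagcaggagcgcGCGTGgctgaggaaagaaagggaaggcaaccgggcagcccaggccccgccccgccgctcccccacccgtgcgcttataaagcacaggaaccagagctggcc
P4HA1: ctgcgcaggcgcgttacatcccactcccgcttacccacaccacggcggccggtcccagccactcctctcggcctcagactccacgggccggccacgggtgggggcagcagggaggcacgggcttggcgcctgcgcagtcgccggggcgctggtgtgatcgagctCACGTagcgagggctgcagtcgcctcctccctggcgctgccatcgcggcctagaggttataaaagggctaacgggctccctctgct

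The ADM window held 1 core, GCGTG on the strand of the gene, whose first base lies 101 bases before the start. The P4HA1 window held 1 core, ACGTG on the opposite strand, 86 bases before the start. These starts are those of RefSeq. The GENCODE annotation starts P4HA1 at 73096974 and SLC2A1 at 42958893, both inside the windows shown. By GENCODE the P4HA1 core thus lies within the gene. No core was found in the SLC2A1 window, which says only that these letters are not in these 250 bases. Of 35116 windows of this length, 18.5% held ACGTG, 32.2% held GCGTG and 43.2% held either, so a match is common. The 3 windows were GC-rich, at 72.4% for SLC2A1, 68% for ADM and 70% for P4HA1 against a median of 58% over all windows.

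In melanocyte-like cells the summed RNA of the pathway was higher at D32 than at D23 and nearly level from D32 to D44. The 25 glycolysis and lactate members together took 5878 CPM at D23, 9303 at D32 and 9561 at D44. GAPDH made up much of that sum, and without it the totals were 4150, 6133 and 6133. Beside this near-level sum, the transporters SLC16A6 and SLC2A1 were higher at D44 than at D32, and the mitophagy receptor BNIP3L was lower. The D23 to D32 difference of the summed level was seen in each class: the 25 members summed to 5603 and 9851 CPM in mesenchymal-like cells of D23 and D32 and to 5861 and 10213 in neural-like cells. The most abundant genes carry these sums. In melanocyte-like cells HK1, GPI, ALDOA and SLC2A3, among others, were lower at D32 than at D23.

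**Figure D1:**
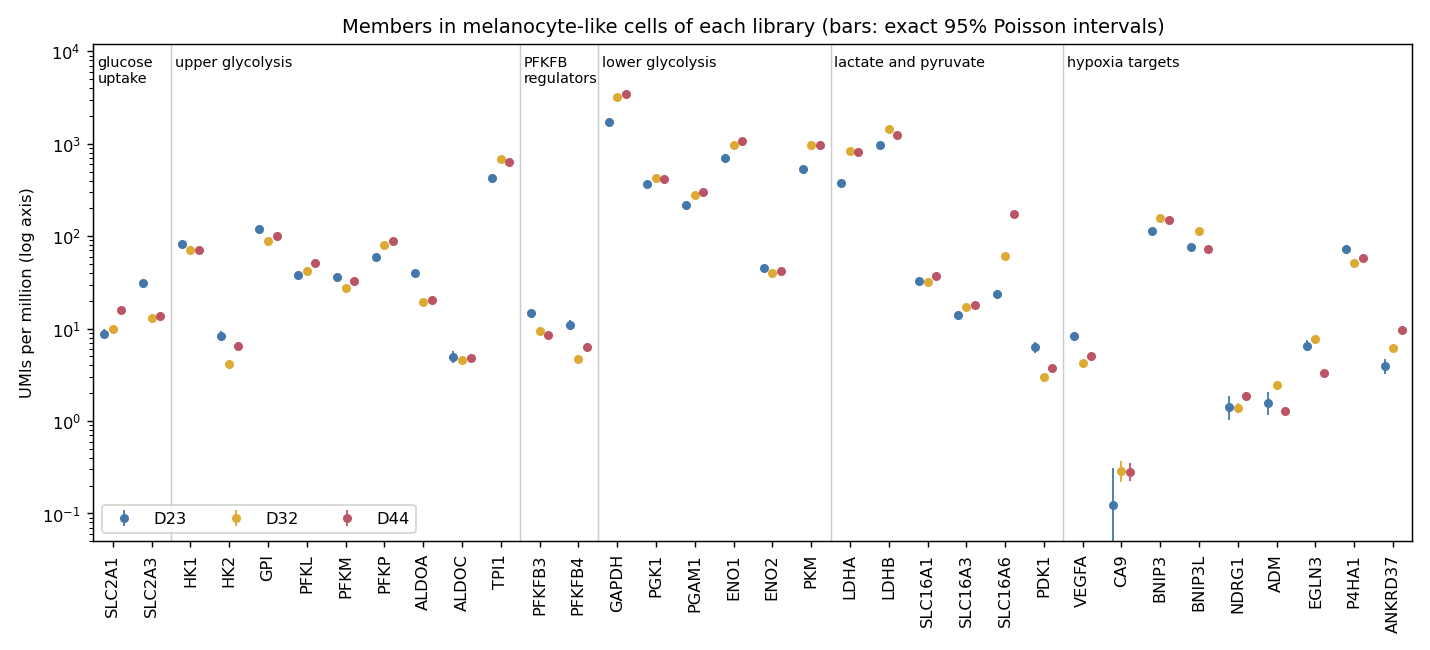
Level of each of the 34 members in melanocyte-like cells of D23, D32 and D44, in CPM on a log axis, grouped by role, with bars for exact Poisson intervals. SLC16A6 stands at 23.7, 61.4 and 173.7 CPM, while the lower glycolysis genes differ mainly between D23 and the later libraries.

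For the D44 to D32 ratio, 23 of the 34 members reached 10 CPM in either library, the minimum set for a fold change to be read. Of these, 2 were higher by at least 1.5-fold, 1 was lower, and 20 stayed within that fold. Over all 8253 genes at the minimum, 2.12% were higher and 2.34% lower by that fold, and the median log2 ratio was -0.02. Nothing is read from the members' count, because the list was chosen with this contrast in view. Of the called members, BNIP3L (1.56-fold lower) and SLC2A1 (1.59-fold higher) lay nearest to the limit. Just outside it were ANKRD37, at 9.73 CPM in D44 and 1.58-fold higher than in D32, and HK2, at 6.57 CPM and 1.59-fold higher, both under the minimum level.

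**Figure D2:**
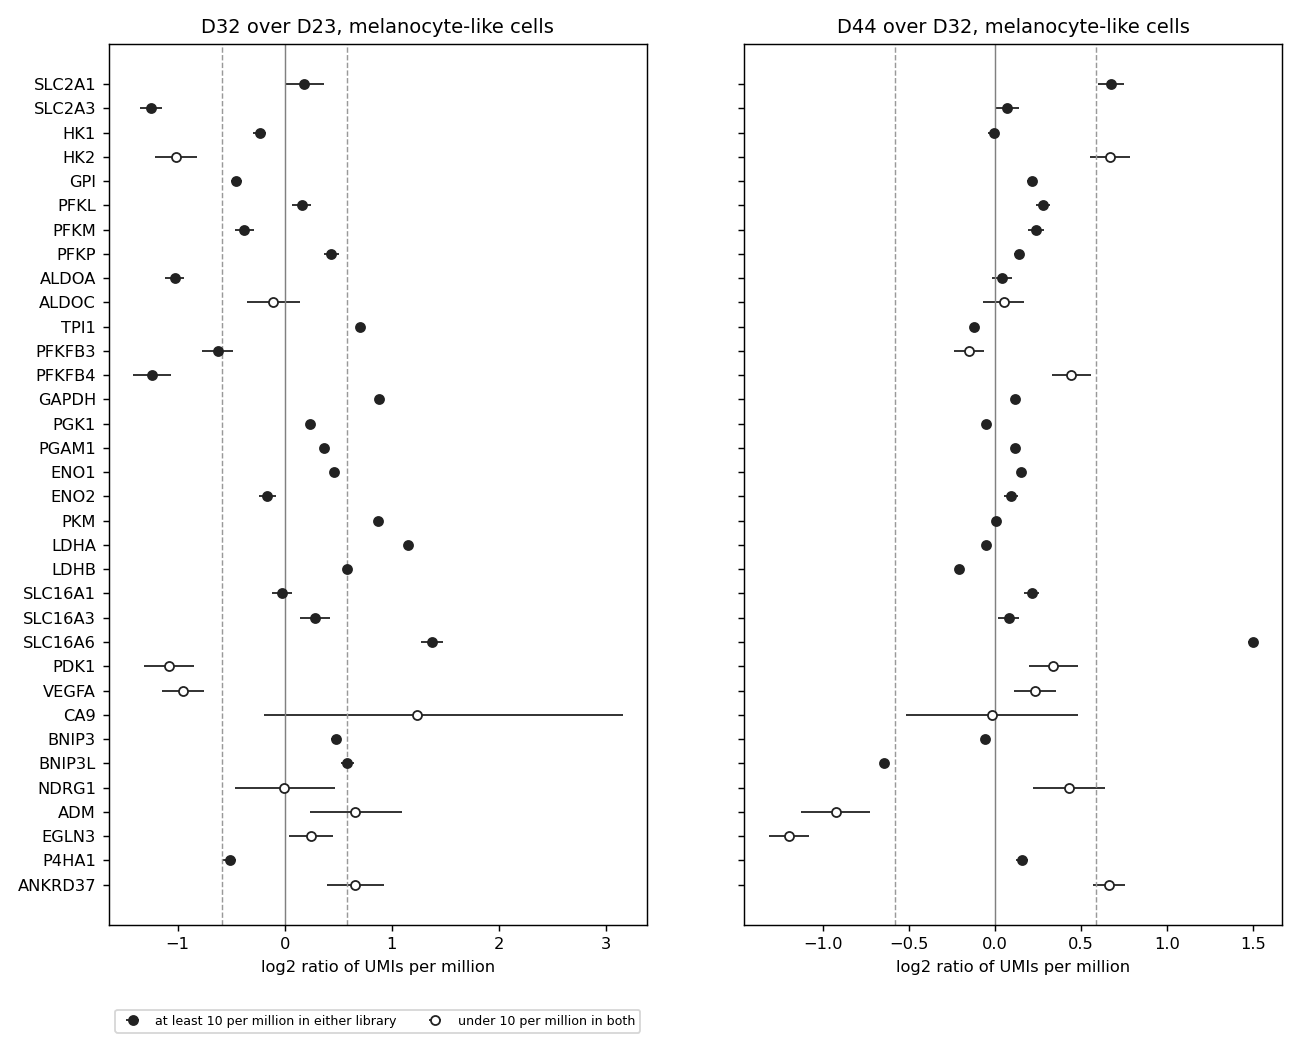
Log2 ratio of CPM for each member in melanocyte-like cells, D32 over D23 on the left and D44 over D32 on the right, with 95% counting intervals, filled points for genes at 10 CPM in either library and dashed lines at 1.5-fold. SLC16A6 lies farthest right in the D44 over D32 panel, at 1.501.

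SLC16A6 (17: 68267026 to 68291267, minus strand, hg38) belongs to the monocarboxylate transporter family, whose members SLC16A1 and SLC16A3 are the well-described lactate carriers. Its own substrates are less settled, so the name lactate export is not established for it. In melanocyte-like cells it stood at 23.7 CPM in D23 (95% interval 22.04 to 25.41), 61.4 in D32 (60.33 to 62.39) and 173.7 in D44 (172.1 to 175.3). Each library was thus above the one before it, by 2.59-fold and then 2.83-fold, and the D44 to D32 ratio was the 22nd highest of the 8253 genes. On the log2 scale that ratio was 1.501 and ranged from 1.49 to 1.56 over the other scalings, cell filters, gates and thinning tried. ARSG, which overlaps it on the opposite strand, was at 7.15, 7.76 and 11.6 CPM.

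The share of cells with SLC16A6 differed in the same order. With every cell thinned to 5000 UMIs, SLC16A6 was detected in 9.17%, 20.5% and 46.7% of melanocyte-like cells in D23, D32 and D44, against 18.0%, 57.9% and 87.8% before thinning. Mesenchymal-like cells of D32, which were nearly as deep (median 34073 UMIs against 36620), had 0 of 275 cells with a UMI after thinning, with an exact upper limit of 1.33%. In D23 the thinned shares were 1.17% of mesenchymal-like and 0.530% of neural-like cells, and in D32 7.69% of neural-like cells. In D44 8 of the 21 mesenchymal-like cells held a UMI, or 38.1% with an exact interval of 18.1% to 61.6%, which overlaps the melanocyte-like share of that library. Among melanocyte-like cells its counts spread more than counting alone gives, with a variance to mean ratio of 1.39, 1.51 and 1.56, where 1 is expected from counting.

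SLC16A1 and SLC16A3, the lactate carriers, showed no such difference. SLC16A1 was at 32.8, 32.3 and 37.4 CPM and SLC16A3 at 14.0, 17.0 and 18.0 in D23, D32 and D44. Of the UMIs of SLC16A6 and SLC16A1 together, SLC16A6 took 42.0%, 65.5% and 82.3%, a share that is read only for its change, since the genes differ in length. SLC16A4, another family member from the list of monocarboxylate and pyruvate entry genes, was at 17.6, 13.4 and 8.53 CPM and lower at D44 by 1.5-fold or more. It was the 1 gene past that fold among the 13 of 27 in its list that reached the minimum. PDP1, the phosphatase that reactivates pyruvate dehydrogenase, was at 16.8, 12.0 and 17.2, and PDK2, a kinase with the opposite action, at 20.4, 25.2 and 17.8.

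Of the glucose transporters, SLC2A1 (the widely expressed carrier often raised by hypoxia) was at 8.83, 10.0 and 16.0 CPM in melanocyte-like cells, a D44 to D32 ratio of 1.59 with a counting interval of 1.51 to 1.68. SLC2A3, a high-affinity carrier typical of neurons, was at 30.8, 13.0 and 13.6. D23 was thus the highest library for SLC2A3 and the lowest for SLC2A1. As a share of both carriers' UMIs, SLC2A1 went from 22.3% to 43.5% and 54.0%. Among 21 further genes of glycolysis and glucose transport, 9 reached the minimum and none passed 1.5-fold from D32 to D44. The 3 farthest from no change were SLC2A6 (25.8, 29.5 and 20.3 CPM), PGM1 (7.30, 14.8 and 18.6) and SLC2A13 (17.5, 13.8 and 16.1).

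Upper glycolysis genes differed in no common direction between D23 and D32. TPI1, which interconverts the triose phosphates, was at 424 CPM in D23, 687 in D32 and 631 in D44. Of the hexokinases that trap glucose, HK1 was at 83.0, 70.6 and 70.1, and HK2 at 8.37, 4.13 and 6.57. GPI, which makes fructose phosphate, was at 119.7 in D23, 87.6 in D32 and 101.5 in D44, so that all 3 of these enzymes were lowest or near lowest at D32. Of the phosphofructokinases that commit sugar to the pathway, PFKP was at 59.6, 80.5 and 88.6, PFKL at 38.1, 42.4 and 51.5, and PFKM at 36.1, 27.8 and 32.8. ALDOC stayed between 4.60 and 4.95. ALDOA was at 40.0, 19.6 and 20.2. These values are uncertain, because a same-strand gene model overlaps ALDOA and reads shared by both may not have been counted. The same limit holds for PGK1 and PFKFB4, given below, which ATP7A and UCN2 overlap on the same strand. In melanocyte-like cells ATP7A was at 83.9, 41.9 and 47.2 CPM and UCN2 at 2.17, 0.265 and 1.76.

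PFKFB3 and PFKFB4 make and break the allosteric activator of phosphofructokinase. PFKFB3 was at 14.6 CPM in D23, 9.44 in D32 and 8.50 in D44, and PFKFB4 at 11.1, 4.68 and 6.36. Both were highest at D23, where they reached the minimum level, and both were under it in the later libraries. Their summed level was lower in D32 than in D23 by 0.86 on the log2 scale, and by 0.46 with the alternative TMM scaling.

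The summed lower glycolysis enzymes took 3587 CPM in D23, 5851 in D32 and 6227 in D44. GAPDH was at 1728 CPM in D23, 3170 in D32 and 3429 in D44. PKM, the pyruvate kinase of dividing and most adult tissues, was at 532, 969.9 and 972, and ENO1 at 700.3, 962 and 1067. Most of the difference lay between D23 and D32, and D44 stayed close to D32. PGK1 was at 366, 431 and 415, PGAM1 at 216, 278 and 300.3, and ENO2, the enolase of neurons and neuroendocrine cells, at 44.8, 39.9 and 42.5. Several of these genes (GAPDH, PGK1, ENO1, PKM, TPI1, LDHA) have processed pseudogenes of near-identical sequence, and how reads were split among them is not given in the sources used here.

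Of the lactate dehydrogenase subunits, LDHA is the one linked to lactate production and LDHB the one linked to its use. LDHA was at 379, 842 and 813 CPM and LDHB at 958, 1434 and 1237. LDHA took 28.3% of both in D23, 37.0% in D32 and 39.7% in D44, read again only for its change, against 43.1%, 47.3% and 68.9% in mesenchymal-like cells and 25.9% and 46.0% in neural-like cells. Over cells, LDHA counts spread more than counting gives, with a variance to mean ratio of 1.26, 1.86 and 1.94 in D23, D32 and D44. GAPDH spread too, at 1.64, 2.05 and 2.86, whereas the ratio exceeded 1.3 for only 2, 4 and 5 of the 34 members in the 3 libraries. For a given variation between cells, this ratio is larger for genes with more UMIs. Here and for SLC16A6 above, it therefore does not rank members or libraries. PDK1 was low throughout, at 6.29, 2.98 and 3.76 CPM.

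For D32 over D23, 25 members reached the minimum, 5 were higher by at least 1.5-fold (TPI1, GAPDH, PKM, LDHA and SLC16A6), 4 were lower (PFKFB3, PFKFB4, ALDOA and SLC2A3) and 16 were within the fold. Over the 8750 genes at the minimum 15.2% were higher and 20.8% lower, so the members past the fold were about as large a share as among all genes. The split depends on scaling. TMM scaling moved the median log2 ratio of all genes from -0.08 to 0.36, a shift of 0.44, and gave 13 members higher and 2 lower, so that 86.7% of the members past the fold were higher against 55.6%. SLC16A6 (log2 ratio 1.37, and 1.77 with TMM) and LDHA were higher and SLC2A3 lower under both scalings. Without mitochondrial and ribosomal protein genes in the totals, 45.5% of the members past the fold were higher.

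The hypoxia targets showed no common direction. BNIP3L and BNIP3, which tag mitochondria for removal, were at 75.6, 113 and 72.3 CPM and at 113, 158 and 151. BNIP3L was thus lower by 1.56-fold at D44 than at D32 and back near its D23 level, and BNIP3 was not. P4HA1, a subunit of the collagen prolyl hydroxylase, was at 73.5, 51.5 and 57.5, and ANKRD37, a small ankyrin repeat protein and a HIF target, was highest in D44, at 3.91, 6.15 and 9.73. EGLN3, the prolyl hydroxylase that HIF itself induces, was at 6.51, 7.70 and 3.35, and VEGFA, the vascular growth factor, at 8.25, 4.27 and 5.02. The remaining 3 had few UMIs: ADM, a vasodilator peptide, at 1.56, 2.45 and 1.29, NDRG1 at 1.41, 1.40 and 1.88, and CA9, the carbonic anhydrase often used as a hypoxia marker, at 0.122, 0.287 and 0.283. The D44 to D32 ratios of EGLN3 (0.435) and ADM (0.526) were below 1, with ANKRD37 at 1.58.

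The oxygen-sensing genes were described beside their targets. HIF1A was highest in D23, at 123, 74.0 and 60.9 CPM, and EPAS1, its relative, was at 0.183, 1.58 and 7.07, always under the minimum. SIAH2 (15.7, 19.0 and 15.9) and CUL2 (57.2, 54.2 and 48.0) were, after HIF1A, the 2 farthest from no change of those at the minimum, both with a ratio below 1. Of 11 sensing genes 8 reached the minimum, 3 with a D44 to D32 ratio above 1 and 5 below, and none passed 1.5-fold. Among 26 other hypoxia targets 17 did, of which 0 were higher and 1, ANGPTL4, was lower (2.57, 10.8 and 4.22). MXI1 was at 119, 82.3 and 57.8, and TMEM45A at 14.9, 14.4 and 10.8. These 3 were the farthest from no change, and over the 17 targets at the minimum 7 had a ratio above 1 and 10 below. RNA does not show HIF protein.

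Genes of the pathways that branch from glycolysis were taken as another point of comparison. All 12 pentose phosphate and serine synthesis genes reached the minimum, and none passed 1.5-fold from D32 to D44. The serine pathway enzymes PHGDH (31.0, 107 and 148 CPM), PSAT1 (47.3, 62.1 and 92.4) and PSPH (13.6, 17.5 and 22.7), which start from a glycolytic intermediate, were the 3 farthest from no change, all with a ratio above 1. Of 15 stress and dissociation genes 11 reached the minimum, with 2 higher, GDF15 (38.4, 46.8 and 213) and FOSB (3.12, 9.31 and 23.6), and 1 lower, HMOX1 (17.8, 39.3 and 16.5). The whole stress list summed to 340, 509 and 648 CPM, and its part in the members' ratios was not tested.

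The cell classes were then compared across libraries, a contrast in which the 3 libraries act as blocks and edgeR's quasi-likelihood test with Benjamini-Hochberg adjustment over all genes was used. Sums of UMIs per class and library entered, and 33 members passed the filter on low counts, all but CA9. The sums of 1 library share its droplets, and no library has a second culture. With the library as a block, the p-values measure how much class differences vary between these 3 libraries. All 3 classes share 1 estimate of that spread. Neural-like sums come from D23 and D32 only, and D32 and D44 share an induction, so the libraries are not 3 independent replicates. The list was chosen with class levels in view, and the p-values between classes do not allow for that choice.

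Melanocyte-like cells had much less SLC2A1 and ADM than either other class. Against the 8.83 to 16.0 CPM of melanocyte-like cells given above, SLC2A1 was at 94.0, 148 and 492 CPM in mesenchymal-like cells of the 3 libraries, and at 92.0 and 119 in neural-like cells of D23 and D32. Melanocyte-like cells of every library lay below every sum of the other classes. The log2 difference was -4.0 ± 0.26 (SE) from mesenchymal-like cells (16.0-fold lower, edgeR adjusted p = 0.000436) and -3.50 ± 0.28 from neural-like cells (11.3-fold lower, edgeR adjusted p = 0.000863). Both calls stayed under each of the alternatives run, 13 for the first and 11 for the second. After thinning, SLC2A1 was detected in 3.61%, 4.19% and 7.17% of melanocyte-like cells and in 25.1%, 38.5% and 71.4% of mesenchymal-like cells.

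Mesenchymal-like cells held ADM at 53.7 CPM in D23, 174 in D32 and 251 in D44, and neural-like cells at 28.1 in D23 and 118 in D32, against 1.29 to 2.45 in melanocyte-like cells. Melanocyte-like cells did not overlap with either class, and in both other classes the later library was the higher one. The log2 difference was -6.23 ± 0.47 (edgeR adjusted p = 0.000657) and -5.07 ± 0.47 (edgeR adjusted p = 0.00123), with the calls held under all 13 and 11 alternatives. ADM, whose window with a GCGTG core is shown above, had the largest difference of the members in both contrasts.

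**Figure D3:**
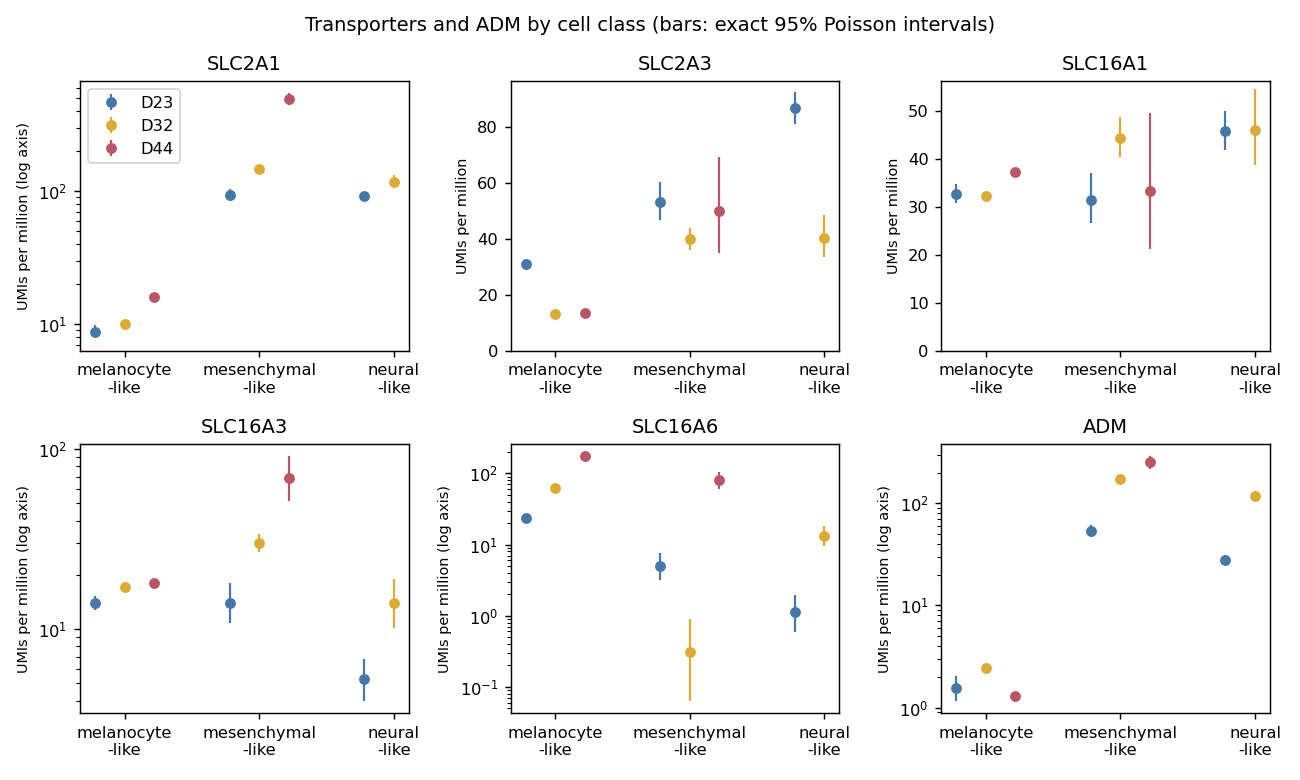
Level of 5 transporters and ADM in each class and library, in CPM, with exact Poisson intervals, on a log axis save for SLC2A3 and SLC16A1, whose axes start at 0. SLC2A1 and ADM of melanocyte-like cells lie below those of the other classes in each library, whereas SLC16A1 overlaps between melanocyte-like and mesenchymal-like cells.

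SLC2A3 and P4HA1 were the other 2 members lower than in both classes. SLC2A3 was at 53.0, 39.8 and 49.9 CPM in mesenchymal-like and 86.5 and 40.3 in neural-like cells, above melanocyte-like cells of the same library in each case. Its log2 differences were -1.34 ± 0.22 (edgeR adjusted p = 0.00767) and -1.50 ± 0.24 (edgeR adjusted p = 0.00754), of which the first was lost with no replicate block and with clusters in place of the gate. P4HA1 was at 187, 118 and 162 in mesenchymal-like cells against 73.5, 51.5 and 57.5, a log2 difference of -1.26 ± 0.14 (edgeR adjusted p = 0.00198) held under all 13 alternatives. From neural-like cells, at 122 and 82.4, it differed by -0.57 ± 0.16 (edgeR adjusted p = 0.048), a call kept in only 4 of 11 alternatives.

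Against mesenchymal-like cells 3 more members were lower. VEGFA was at 25.4, 18.4 and 15.3 CPM in mesenchymal-like cells (log2 difference -1.73 ± 0.25, edgeR adjusted p = 0.00549), a call that held under all alternatives. NDRG1, a differentiation and stress gene, was at 7.45, 7.93 and 40.2 (-3.01 ± 0.44, edgeR adjusted p = 0.00554), with the call lost on thinned counts. PDK1 was at 12.1, 5.49 and 11.1 (-1.01 ± 0.27, edgeR adjusted p = 0.0406) and kept its call in only 5 of 13 alternatives.

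Members higher in melanocyte-like cells were few. ENO2 was at 44.8, 39.9 and 42.5 CPM against 19.1, 13.2 and 24.96 in mesenchymal-like cells (log2 difference 1.31 ± 0.22, edgeR adjusted p = 0.00921), and this held under all 13 alternatives. GPI was at 64.0, 49.0 and 98.5 in mesenchymal-like cells (0.69 ± 0.16, edgeR adjusted p = 0.0284), with the call kept in 7 of 13. PGK1 was the 1 member higher than in neural-like cells (0.59 ± 0.17, edgeR adjusted p = 0.0482), kept in 6 of 11. The overlap of PGK1 with ATP7A, described above, limits this value too.

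In all, 2 members were higher and 7 lower than in mesenchymal-like cells, and 24 were not called. Of the 15232 genes tested, 9.09% were higher and 10.4% lower. Against neural-like cells 1 member was higher and 4 lower, with 28 not called, and 8.48% of genes were higher and 12.1% lower. Nothing is read from these counts, because the list was chosen with class levels in view. By role, both glucose transporters were lower in both contrasts, and 4 of 8 tested hypoxia targets were lower than in mesenchymal-like and 2 than in neural-like cells, with none higher. Of the 15 members of upper and lower glycolysis, 2 were called in the first contrast and 1 in the second, each higher in melanocyte-like cells. The median log2 difference of the hypoxia targets was -0.75 and -0.38, against 0.09 and 0.08 over all genes.

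**Figure D4:**
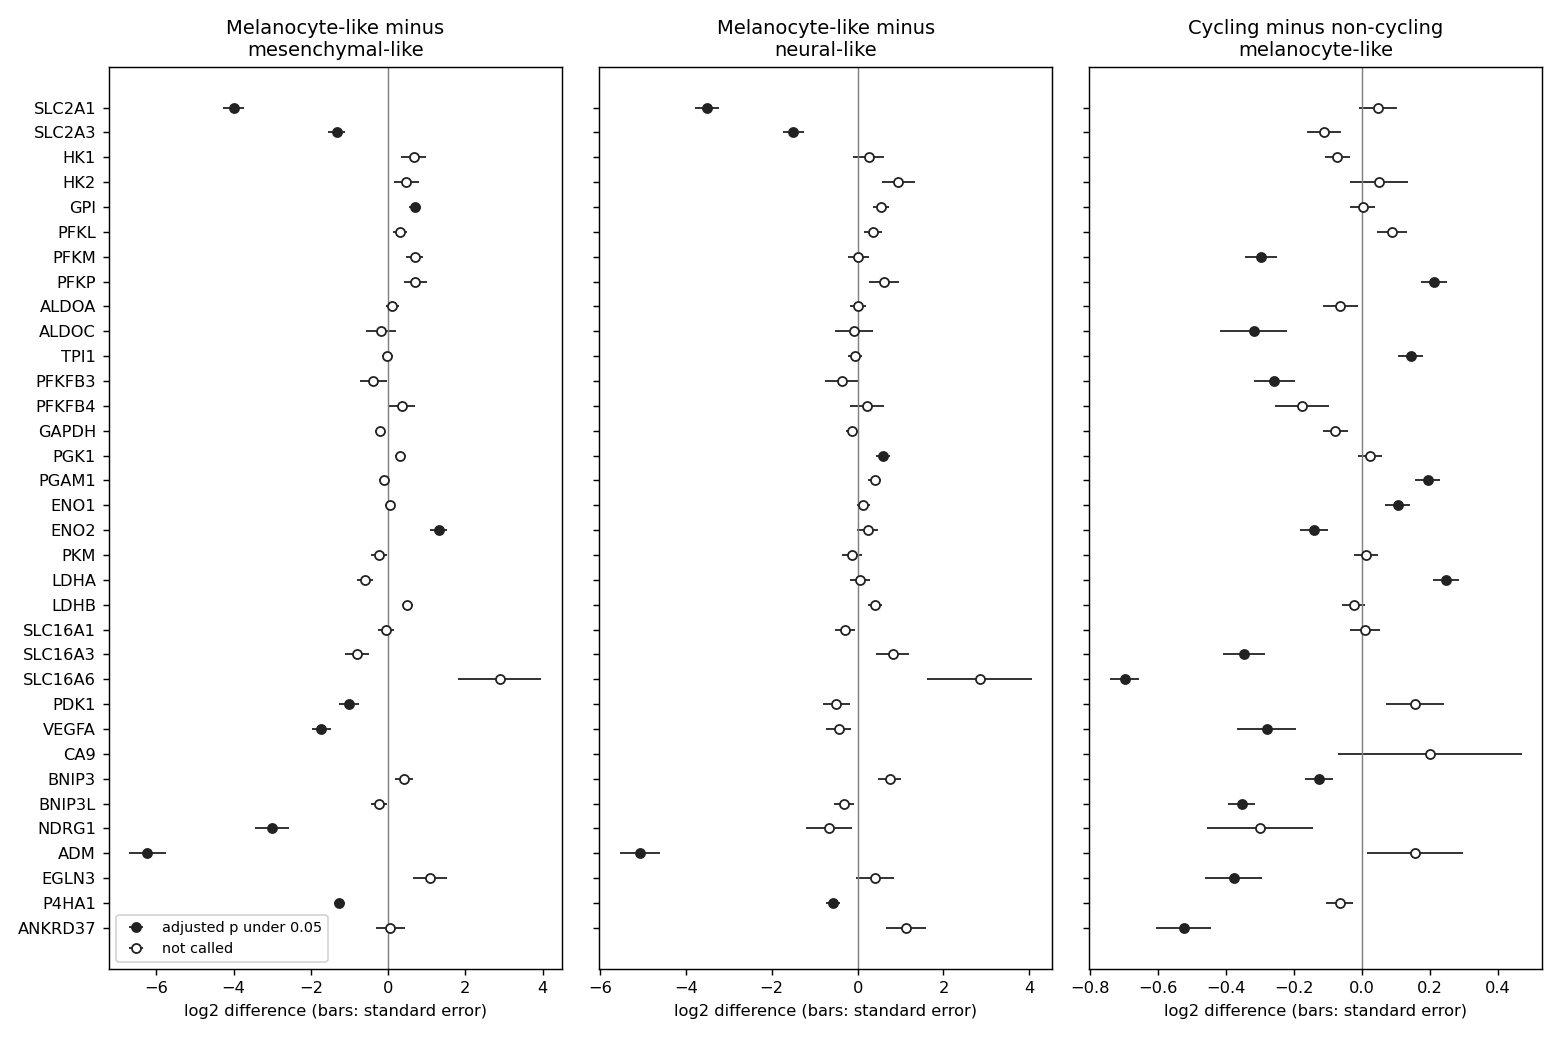
Log2 difference of each member in the 3 class contrasts from edgeR, with bars for the standard error and filled points for an adjusted p under 0.05; CA9 was tested only in the third. SLC2A1, SLC2A3, ADM and P4HA1 lie left of 0 with filled points in both contrasts between classes, and SLC16A6 has a large difference with a wide error.

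The genes for lactate handling were not called between classes, save PDK1. LDHA was at 486, 1068 and 2075 CPM in mesenchymal-like and 282 and 1051 in neural-like cells, with log2 differences of -0.60 ± 0.20 (edgeR adjusted p = 0.0896) and 0.06 ± 0.23 (edgeR adjusted p = 0.884). SLC16A3 was at 14.0, 30.0 and 69.3 in mesenchymal-like and 5.25 and 14.0 in neural-like cells, so that melanocyte-like cells lay at or below the first class and above the second, and neither difference passed (edgeR adjusted p = 0.128 and 0.176). SLC16A1 was at 31.6, 44.4 and 33.3 CPM in mesenchymal-like cells, which overlaps the melanocyte-like values. In neural-like cells it was at 45.8 and 46.2, above melanocyte-like cells of every library. Neither difference was called (edgeR adjusted p = 0.919 and 0.426).

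SLC16A6 itself did not pass the test between classes. It was at 5.04, 0.305 and 80.4 CPM in mesenchymal-like cells and at 1.13 and 13.3 in neural-like cells, below melanocyte-like cells of the same library each time. The ratio to mesenchymal-like cells was 4.70 in D23, 201 in D32 and 2.16 in D44, and this spread left the log2 difference of 2.89 ± 1.08 with an edgeR adjusted p of 0.114. Against neural-like cells it was 2.84 ± 1.21 (edgeR adjusted p = 0.147). The gene was called higher than in neural-like cells with only the 2 classes in the fit, and than in either class with no filter, on thinned counts and with clusters in place of the gate. With clusters, D44 held 0 mesenchymal-like cells, so that contrast rests on D23 and D32 and lacks the D44 sum at 80.4 CPM. Without D23 the difference was 3.56, without D32 1.79 and without D44 4.03 against mesenchymal-like cells, and the first 2 of these passed the test. The 58 SLC16A6 UMIs of D44 mesenchymal-like cells lay in 13 of the 21 cells and amounted to 841 per 1000 PMEL UMIs, against 35.6 in melanocyte-like cells of that library. In mesenchymal-like cells of D23 that ratio was 99.1 against 13.5, and in those of D32, with only 3 UMIs in 275 cells, 5.80 against 12.4.

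Further genes of oxygen sensing and hypoxia differed between classes in the same contrasts. Of 24 other hypoxia targets tested, 9 were lower and 1 higher than in mesenchymal-like cells, and 5 were lower and 1 higher than in neural-like cells. MXI1 was the higher one in both, by 2.73 ± 0.18 and 2.00 ± 0.20 on the log2 scale (edgeR adjusted p = 0.000453 and 0.00159), and TMEM45A was lower by -1.29 ± 0.20 and -0.89 ± 0.22 (edgeR adjusted p = 0.00634 and 0.0347). HIF1A was lower than in mesenchymal-like cells (-0.84 ± 0.16, edgeR adjusted p = 0.0124) and than in neural-like cells (-1.09 ± 0.18, edgeR adjusted p = 0.0078). Of 22 other monocarboxylate and pyruvate genes tested, 3 were higher and 4 lower than in mesenchymal-like and 2 higher and 4 lower than in neural-like cells. PDP1 was among the lower ones in both, by -0.78 ± 0.17 and -0.99 ± 0.19 (edgeR adjusted p = 0.0215 and 0.014).

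Cycling and non-cycling melanocyte-like cells were compared within each library, split by the summed UMIs of 12 cell cycle genes that are no members. Non-cycling means only that this sum was under the limit, and such cells need not be resting. The cycling cells numbered 753, 2046 and 2291, or 31.3%, 37.0% and 39.8% of those deep enough to score. LDHA was higher in cycling cells in each library, at 415 against 359.5, 951 against 761 and 878 against 760.4 CPM, a log2 difference of 0.25 ± 0.04 (edgeR adjusted p = 3.71e-05). PFKP (0.21 ± 0.04), PGAM1 (0.19 ± 0.04), TPI1 (0.14 ± 0.04) and ENO1 (0.10 ± 0.04) were higher too, with edgeR adjusted p-values of 0.000185, 0.000248, 0.00385 and 0.0252. These differences were under 1.2-fold, and the 5 genes were higher in every library.

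SLC16A6 was the member with the largest difference by cycling. It was at 15.4 CPM in cycling against 28.1 in non-cycling cells of D23, 46.0 against 72.9 in D32 and 129 against 209.9 in D44. The log2 difference was -0.70 ± 0.04 (1.62-fold lower, edgeR adjusted p = 2.59e-10). In non-cycling cells alone, the D44 to D32 log2 ratio of SLC16A6 was 1.53. SLC16A3 was lower in cycling cells as well (-0.35 ± 0.06, edgeR adjusted p = 0.00017), and SLC16A1 was not called (0.01 ± 0.04).

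Of the 9 hypoxia targets 5 were lower in cycling cells and none was higher. ANKRD37 was lower by -0.52 ± 0.08 (edgeR adjusted p = 4.13e-05), EGLN3 by -0.38 ± 0.08 (edgeR adjusted p = 0.00113) and BNIP3L by -0.35 ± 0.04 (edgeR adjusted p = 8.15e-07). VEGFA (-0.28 ± 0.09) and BNIP3 (-0.13 ± 0.04) were the others. PFKM (-0.30 ± 0.05), ALDOC (-0.32 ± 0.10), PFKFB3 (-0.26 ± 0.06) and ENO2 (-0.14 ± 0.04) were lower among the glycolysis genes, with edgeR adjusted p-values from 5.16e-05 to 0.0139. Several of these calls were not stable: VEGFA, PFKFB3, ALDOC and ENO2 lost theirs on thinned counts, BNIP3, ALDOC and ENO2 without D44, PFKFB3 and ENO2 without D32, and ENO1 with DESeq2 and with the cycling limit doubled. Among other lists, 4 of 15 further glycolysis genes were higher and 8 lower, 2 and 8 of 22 monocarboxylate and pyruvate genes, 1 and 2 of 11 sensing genes, 1 and 9 of 25 other hypoxia targets, 5 and 2 of 12 pentose phosphate and serine genes, and 3 and 8 of 15 stress genes. In all 5 members were higher and 11 lower, against 21.1% and 24.4% of the 17147 genes tested. Cycling cells were deeper, with a median of 43829 UMIs against 33577 in D32, and on counts thinned to 5000 UMIs per cell 6 members were higher and 8 lower. With the library left out as a block, 0 members were called in either direction, with none at an unadjusted p under 0.05, whereas DESeq2 with the block called 4 higher and 11 lower.

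Glycolysis members were next described in the cells with most hypoxia RNA, the top 10% of melanocyte-like cells by summed UMIs of the 9 hypoxia targets. That split used the 9 targets, so only the other 25 members are given and no test was made. Their median log2 ratio of top to other cells was 0.05 in D23, -0.01 in D32 and 0.06 in D44, and no member left the range of -0.28 to 0.46. GAPDH was at 1727 against 1730 CPM in D23, 3177 against 3169 in D32 and 3534 against 3417 in D44. SLC16A3 stood highest in D44 (23.9 against 17.3) and in D23 (17.5 against 13.5) but not in D32 (17.2 against 17.0). LDHA was at 354 against 382, 803 against 847 and 861 against 808, so that LDHA lay below the other cells in D23 and D32 and above them in D44. The split used thinned counts, and the lowest sum in the top group was only 3, 4 and 3 UMIs in D23, D32 and D44. Thinned counts of BNIP3, BNIP3L and P4HA1, the targets with most UMIs, had variance to mean ratios of 0.982 to 1.12. That is close to counting alone, so the split may sort cells largely by counting noise. Small ratios here therefore cannot show whether glycolysis RNA follows hypoxia RNA.

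Within D44, clusters of melanocyte-like cells differed in glycolysis. Of its 9 clusters, 2 with 437 and 119 cells, chosen after their values were seen, had GAPDH at 5201 and 5093 CPM, whereas the other 7 were between 2899.9 and 3399.8. PKM (1413 in both), SLC2A1 (27.3 and 31.1 against 9.40 to 17.7), SLC16A3 (36.3 and 40.8 against 12.5 to 20.5) and PFKFB4 (15.6 and 19.4 against 2.98 to 6.21) were high in the same cells. These 2 clusters, 556 cells in all, had the lowest PMEL and TYRP1 of the 9, the only pigment genes read by cluster. PMEL was at 2185 and 1533 against 3941 to 8149, and TYRP1 at 633 and 420.2 against 1974 to 2745. S100B, a glial and melanocytic calcium-binding protein, was at 1713 and 1368 there, and at most 759 elsewhere. Clusters were formed on these same cells, and the 2 were chosen after their values were seen, so these values are descriptive. In the other libraries the cluster lowest in TYRP1 was not high in GAPDH. It had TYRP1 at 14.8 and GAPDH at 1562 CPM in D23, and 453 and 3179 in D32. Its PMEL was not the lowest of either library.

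**Figure D5:**
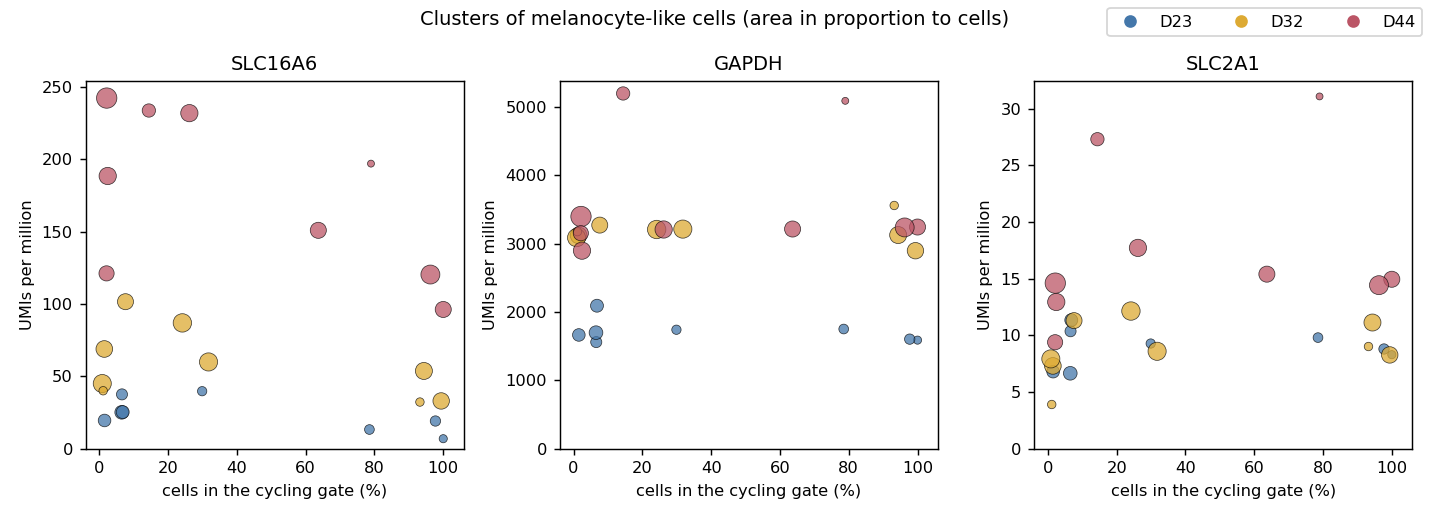
SLC16A6, GAPDH and SLC2A1 in each of the 26 clusters of melanocyte-like cells (8 of D23, 9 of D32, 9 of D44), in CPM, against the share of cycling cells in percent, with point area in proportion to cells. In D44, 2 clusters stand above the rest for GAPDH and SLC2A1, and SLC16A6 is lowest, at 96.2 CPM, in the cluster whose cells were all cycling.

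SLC16A6 did not mark those clusters. It was at 234 and 197 CPM in them and between 96.2 and 242 in the other 7 clusters of D44, which overlap. Across clusters of D32 it ranged from 32.3 to 102 and across those of D23 from 6.97 to 39.8, so that the lowest cluster of D44 lay below the highest of D32. In cells with 2 or more thinned SLC16A6 UMIs, the pigment cell regulator MITF was at 506 against 340 CPM in cells with none in D23, at 404 against 336 in D32 and at 391 against 314 in D44. PMEL, a melanosome structural protein, was at 1826 against 1751 CPM in D23, 4762 against 5006 in D32 and 4681 against 4963 in D44, so that MITF was higher in each library and PMEL was higher only in D23. Of the 11 melanocyte markers of the gate, 7 were higher in each library in the cells with more SLC16A6 (MITF, MLANA, TYRP1, TRPM1, GPR143, SLC45A2 and SLC24A5), and PMEL, DCT, TYR and OCA2 were not. The D23 cells with 2 or more numbered 42, the markers served in the gate, and no test was made. SLC16A6 was lower in cycling cells, as given above, and the 2 groups were not matched for cycling. The part of cycling in these values was not tested.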

How the data were processed

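Raw UMI counts, deposited by the authors without normalization, came from Cell Ranger 6.1.2 on hg38, per the labels; the annotation release is not given in the sources used here. Cells were filtered with the study's limits (mitochondrial share at most 10%, over 1000 genes in D23 and over 3000 in D32 and D44), which left 49850363, 241341185 and 266709913 UMIs. Pairs of libraries shared 9 to 28 barcodes. Classes were gated on summed markers per 10000 UMIs (at least 10 for melanocyte-like and mesenchymal-like and 15 for neural-like cells), with limits set after seeing the sums. Scrublet's automatic threshold failed (0.079%, 53.6% and 0% of cells), so the expected share was used; doublets were kept except under 1 alternative. Levels are CPM of class sums and carry exact Poisson and ratios exact conditional intervals at 95%, which cover counting error only. A count of 0 allows 3 UMIs. Class sums of at least 10 cells were tested with edgeR 4.0.16 (TMM, filterByExpr, library as block) on R 4.3.3. The library pairs the sums, since all classes of 1 library share its droplets. The low-count limit, normalization, gate, clusters, thinning, doublets, free RNA and left-out libraries were varied. DESeq2 1.42.0, Scanpy 1.11.5 and Python 3.11.15 were also used. The script that fits the models was tested on simulated counts. Members and lists were chosen with earlier results of these data known. All 34 members are named, and of each other list the 3 genes at 10 CPM or more with the largest absolute D44 to D32 log2 ratio, with HIF1A and EPAS1 in any case. Promoters were matched by symbol to RefSeq for 28 of 34 members, and positions come from GENCODE on hg38.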

Additional observations from a re-analysis of the deposited data

Results flagged for a closer look

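Ratios of melanocyte-like to another class that lay on opposite sides of 1 in different libraries, with counting intervals that exclude 1, were singled out. The difference between libraries was not tested in any of them. The 21 mesenchymal-like cells of D44 stand behind each D44 ratio. For TPI1 the ratio to mesenchymal-like cells was 1.18 in D23, 1.04 in D32 and 0.659 in D44. For PGK1 it was 1.31, 1.40 and 0.868, and for ENO1 1.21, 0.963 and 0.799. The mitophagy receptors BNIP3 (1.44, 1.80 and 0.741) and BNIP3L (0.743, 1.22 and 0.549) also turned. Against neural-like cells, PFKP was at 0.874 in D23 and 2.22 in D32, PKM at 0.722 and 1.07, and LDHA at 1.34 and 0.801.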

How the results depend on the processing

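The D44 to D32 counts of members (2 higher, 1 lower) became 4 and 3 with no minimum level and 1 and 0 with a 2-fold limit. For D32 over D23 (5 and 4) they became 13 and 2 with TMM scaling, 8 and 7 with no minimum, and 2 and 3 with a 2-fold limit. Against mesenchymal-like cells the 2 higher members became 1 with only the 2 classes in the fit, 1 with no replicate block, 1 with free RNA taken off and 7 with no filter, while leaving out 1 library gave 2 to 3 higher and 6 to 8 lower. Against neural-like cells the 1 higher member became 5 with only the 2 classes, 6 with no filter, 4 with clusters, 3 without D44, and 0 with total UMIs, with no replicate block, with the stricter gate and with free RNA taken off. Leaving out D23 or D32 gave no value there, since fewer than 2 libraries then hold both classes. By cycling, no replicate block gave 0 higher and 0 lower. The causes were not tested.

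Log2 ratios of summed role groups moved with scaling. With TMM, D44 over D32 was 0.42 for glucose uptake (0.36 as reported), 0.0301 for upper glycolysis, 0.14 for lower glycolysis, -0.0113 for lactate and pyruvate and -0.13 for hypoxia targets, and D32 over D23 was -0.39 for glucose uptake (-0.78 as reported), 0.73, -0.46 for the PFKFB regulators, 1.10, 1.15 and 0.67. Without mitochondrial and ribosomal protein genes, D44 over D32 was 0.0182 for upper glycolysis (-0.0244 as reported), 0.13 for lower glycolysis, -0.0232 for lactate and pyruvate and -0.14 for hypoxia targets, and D32 over D23 was 0.30, 0.67, 0.72 and 0.24. Upper glycolysis from D32 to D44 thus has no stable sign.

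Each day is 1 library, so its culture, induction and depth move with the day, and intervals cover counting error only. Cells under the study's gene limits were left out, and the class limits were set on these data. The D44 mesenchymal-like sum rests on 21 cells.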
